A study of Mus musculus with 161 samples.

Results

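The mitosis genes are a named list of 42 genes whose products carry out mitosis and the steps on either side of it: cyclins and their kinase, mitotic and checkpoint kinases, the anaphase ubiquitin ligase, the chromosomal passenger complex, kinetochore proteins, chromosome structure proteins, spindle assembly factors and cytokinesis proteins. Members were taken by gene symbol, and the rule sets no limit on any measured value. Of the 42 genes, 41 were measured among the 8307 genes of the bulk RNA-seq matrix, while Ttk was not analysed there and appears only in the single-cell data. That matrix holds only genes that reached 10 FPKM in at least 1 library. Members with a low level in 0 h M0, such as Cenpf with a mean of 5.13 FPKM, can have entered it through conditions where they were higher. This can favour counts of members higher in those conditions, and its part in them was not tested. The cells were bone marrow-derived macrophages (BMDMs) of C57BL/6J mice aged 6 to 10 weeks, grown with M-CSF and stimulated on day 7 of culture. M1 cells received 100 ng/mL LPS with 25 ng/mL IFN-γ, M2 cells received 25 ng/mL IL-4, and M0 cells stayed in the base medium with 20 ng/mL M-CSF in which the bone marrow cells of all groups had been grown. After 24 h in the M1 or M2 cytokines, cells were washed with PBS and were kept in the same cytokines (M1 kept, M2 kept), given the opposing ones (M1→M2, M2→M1) or returned to base medium (M1→M0, the washout, and M2→M0). Times are hours of culture from the first stimulation, or hours after the wash where stated. The labels do not say whether the M0 cultures of 48 h and 96 h were washed at 24 h.

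Bulk RNA-seq covered 48 conditions, with 3 libraries in 45 of them, 2 in 48 h M0, and 4 in 96 h M0 and in M2→M1 cells 4 h after the switch. A further 9 ATAC-seq libraries covered 0 h M0, 24 h M1 and the washout at 72 h, with 3 each, and 7 single-cell RNA-seq libraries covered single cultures. The libraries are labelled biological replicates, and nothing says that they came from separate mice, so p-values measure spread between libraries. For bulk RNA this spread was pooled over all 48 conditions, so SE and p-values do not follow the spread within the conditions compared. The libraries' medians over the members had an SD of 1.24 in the washout at 96 h and 0.053 in 24 h M1 (log2 scale). For conditions as spread as that washout, SE and p-values can be too small. RNA values are FPKM (fragments per kilobase of transcript, scaled to the mapped fragments of the library), which sum to 354027 to 710082 per library over the genes of the matrix, and the number of reads per library is unknown. Macrophage markers were present at a summed 9635 to 10717 FPKM in 0 h M0, and those of neutrophils and their precursors at 1024 to 2836 FPKM. Libraries of 24 h M1 had a neutrophil sum of 64.8 to 80.8 FPKM, against 22.8 to 328 FPKM for those of 24 h M0. Of the 10 genes on that list, 7 were lower and 1 higher in 24 h M1 than in 24 h M0, where 25.2% of all genes were lower and 35.4% higher. Some other marker sums also differed at 24 h, but not all of them followed the mitosis genes over time. The 6 measured macrophage markers summed to 5380 to 6821 FPKM in 24 h M1, against 9501 to 11562 FPKM in 24 h M0, and the 1 measured B cell marker had 0.466 to 1.16 FPKM, against 65.1 to 90.9 FPKM. The 2 measured megakaryocyte markers summed to 144 to 210 FPKM in 24 h M1, against 598 to 855 FPKM in 24 h M0, and 72 h after the wash to 367 to 430 FPKM, against 22.8 to 52.3 FPKM in cells kept in M1 cytokines. The 2 measured fibroblast markers had 0.83 to 25.6 FPKM in 24 h M1, against 1.73 to 34.3 FPKM in 24 h M0. At 4 h of M1 cytokines the macrophage sum was 9699 to 10513 FPKM and the megakaryocyte sum 401 to 630 FPKM. In 0 h M0 these sums were 9635 to 10717 FPKM and 326 to 474 FPKM. The B cell marker had 19.9 to 23.5 FPKM at 4 h, against 72.1 to 95.3 FPKM in 0 h M0. At 72 h after the wash it had 0.88 to 1.57 FPKM, against 56.0 to 79.9 FPKM in 96 h M0. A marker sum cannot tell the number of cells of a type from expression of its markers in other cells. The part of these cell types in the results was not tested. In bulk libraries, fewer dividing cells and less RNA per dividing cell cannot be told apart.

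A macrophage grown in M-CSF still divides, and its mitosis genes are transcribed late in the cell cycle, in the G2 phase and in mitosis (M). Many of them carry CCAAT boxes, bound by the factor NF-Y, and an element called CHR (cell cycle genes homology region), through which the DREAM and MuvB complexes hold them down in resting cells and B-Myb and FoxM1 drive them in G2. Cyclin B with Cdk1 starts mitosis, Aurora kinases and Plk1 build the spindle, the checkpoint kinases hold anaphase until the chromosomes are attached, and Cdc20 with Ube2c then has cyclin B degraded.

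The promoters of 36 members were found in the RefSeq table of mouse promoters (GRCm38.p6, 250 bases before to 50 bases after the gene start). A CHR core, TTTGAA or TTCGAA on either strand, stood in 30 of the 36 (83.3%), against 19.4% of all 27025 promoters of this length. CCAAT on either strand stood in 28 of the 36 members (77.8%), against 37.9% of all promoters, and both kinds of motif in 26 members (72.2%), against 7.7%. The sequences below run 5′ to 3′ on the strand of the gene, with CHR cores and CCAAT boxes (ATTGG on the other strand) in capitals. They are shown because their genes carry much of what follows: Cdk1 has both motifs more than once, Cenpa kept RNA that most members lost, Top2a had the largest rise after the washout, Prc1 had the largest difference between M1→M2 cells and the washout, and Tacc3 has neither motif.
Cdk1 (chr10:69352883-69353042, minus strand): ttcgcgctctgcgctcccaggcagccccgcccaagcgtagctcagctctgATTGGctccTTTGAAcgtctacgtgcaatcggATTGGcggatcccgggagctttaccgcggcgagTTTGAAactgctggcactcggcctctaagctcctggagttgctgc
Cenpa (chr5:30666756-30666915, plus strand): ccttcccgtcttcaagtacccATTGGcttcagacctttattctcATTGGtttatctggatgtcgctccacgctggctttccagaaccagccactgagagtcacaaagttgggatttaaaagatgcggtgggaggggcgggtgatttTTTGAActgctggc
Top2a (chr11:99024160-99024319, minus strand): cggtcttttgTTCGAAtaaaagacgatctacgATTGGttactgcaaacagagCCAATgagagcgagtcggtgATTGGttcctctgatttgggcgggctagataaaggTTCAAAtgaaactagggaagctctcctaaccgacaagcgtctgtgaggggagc
Prc1 (chr7:80294321-80294480, plus strand): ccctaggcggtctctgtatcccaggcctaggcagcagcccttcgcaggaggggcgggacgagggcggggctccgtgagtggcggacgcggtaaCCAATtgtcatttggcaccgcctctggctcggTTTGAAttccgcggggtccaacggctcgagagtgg
Tacc3 (chr5:33657998-33658157, plus strand): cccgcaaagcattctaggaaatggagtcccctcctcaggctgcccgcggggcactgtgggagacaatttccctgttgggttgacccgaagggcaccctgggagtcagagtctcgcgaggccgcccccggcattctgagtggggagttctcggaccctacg
A match is a run of letters and not a measured binding site. The 6 measured members without a CHR core in this window were Ccnb1, Birc5, Cenpe, Nuf2, Nusap1 and Tacc3. After 4 h of M1 cytokines they had a median of 48.3% of their 0 h M0 mean left, against 31.4% in the 29 measured members with a CHR core, and after 24 h 3.05%, against 2.83%. This difference was not tested.

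The first question was when the mitosis genes fall under M1 cytokines. In 0 h M0 their mean level ran between 5.13 FPKM (Cenpf) and 65.9 FPKM (Cdk1), with a median of 13.6 FPKM. After 1 h of M1 cytokines no member had changed, and the median log2 fold change over the 41 members was 0.03. Over the whole matrix 0.53% of genes were lower and 4.32% higher at that time, and 0 members had an unadjusted p below 0.05 in limma. At 2 h, 5 members were lower (18.7% of all genes) and 1 was higher (24.0%). At 4 h, 37 members were lower and 0 were higher, against 27.6% lower and 35.3% higher over all genes, and the median log2 fold change was -1.34. At 6 h, 40 of the 41 were lower (28.9% of all genes) with a median of -2.24, at 12 h 40 were lower (27.3%) and 1, Tpx2, was higher (37.1%) with a median of -2.93, and at 24 h 40 were lower (25.2%) with a median of -3.06. A gene was called where limma gave an adjusted p below 0.05 (Benjamini-Hochberg over all genes of the comparison), and every fold change of RNA is on the log2(FPKM + 1) scale, which understates the change of low genes. The step between 2 h and 4 h alone lowered 39 members (22.2% of all genes). The count at 2 h rested on few libraries, with 7 lower without replicate 1 and 1 lower without replicate 2 or without replicate 3, while the counts at 4 h stayed between 31 and 37.

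**Figure D1:**
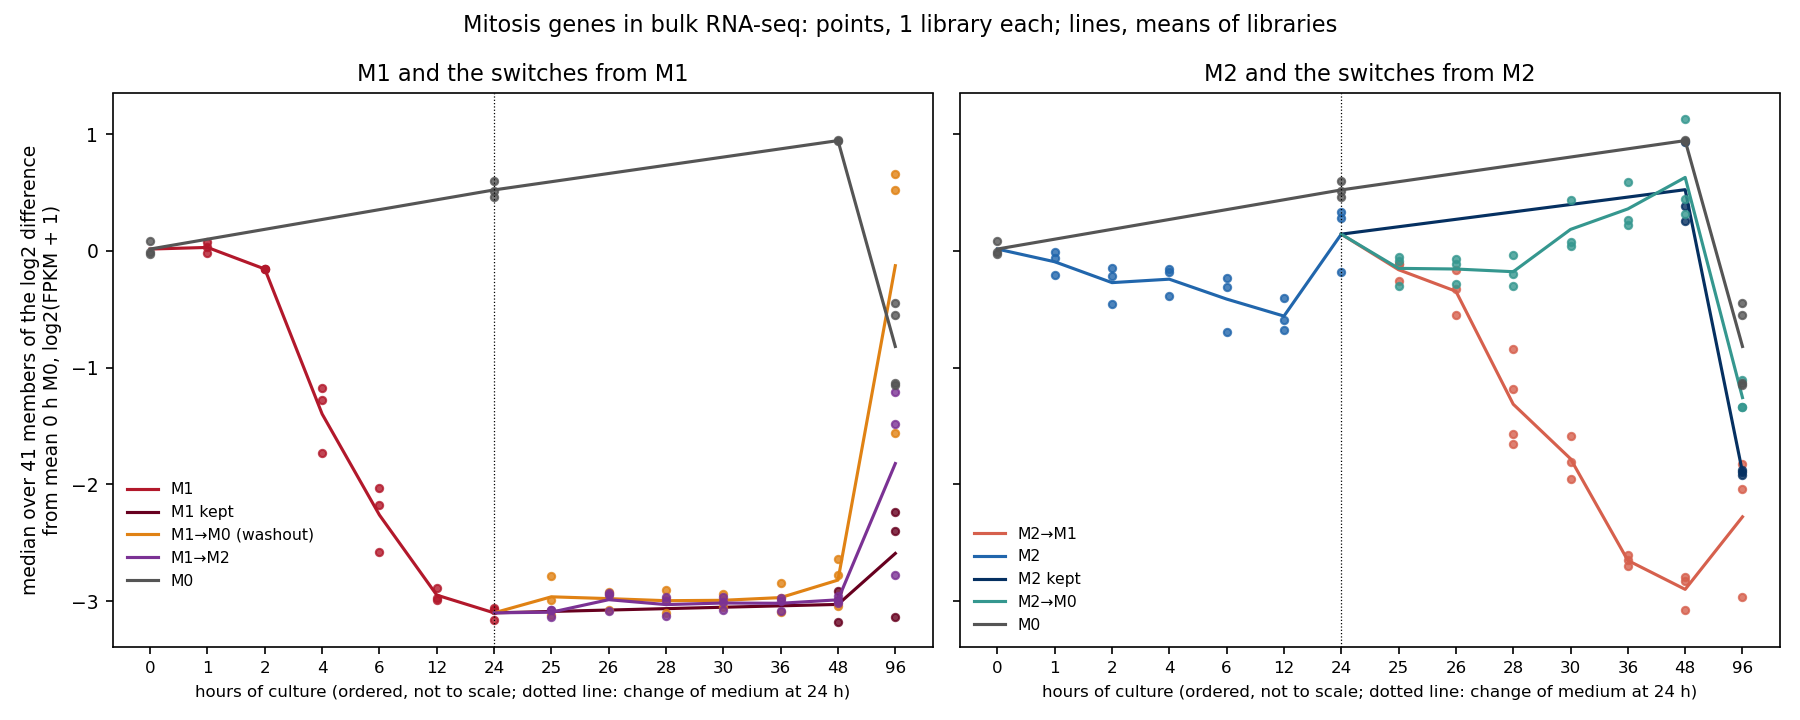
Median over the 41 measured mitosis genes of the log2 difference from the mean of 0 h M0 (vertical axis, log2(FPKM + 1)), in each library against hours of culture (horizontal axis, ordered and not to scale). Points are libraries and lines join means; M1 libraries sit near -3 at 24 h and stay there until 48 h, and the 3 washout libraries at 96 h lie at -1.56, 0.66 and 0.52.

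The loss of members was spread over hours. At 2 h the share of members called lower was below the 18.7% of all genes. Only 1 call was left without replicate 2 or without replicate 3, so these calls do not set an early group apart. The 5 that were lower at 2 h were Plk1, the kinase of spindle poles (log2 fold change -0.83), Bub1b, a checkpoint kinase (-0.60), Cenpf of the kinetochore (-0.63) and the cytokinesis kinesins Kif20b (-1.05) and Kif23 (-0.69). Kif20b had 2.42, 2.39 and 1.98 FPKM in 2 h M1, against 7.58, 4.90 and 5.03 FPKM in 0 h M0, and was the only member at or below 50% of its starting mean at that time. Mki67, the Ki-67 protein that coats mitotic chromosomes, went the other way, with 67.6, 50.1 and 60.2 FPKM in 2 h M1, against 42.9, 23.4 and 27.9 FPKM in 0 h M0 (log2 fold change 0.93, SE 0.32, adjusted p = 0.0126). At 2 h, neither gene's M1 libraries overlapped those of 0 h M0. At 4 h the members left between 12.2% (Cenpf) and 106% (Tpx2) of their starting mean, with a median of 32.7%, and 4 were not called lower: Ube2c (-0.61), Mki67 (-0.36), Ckap2l (-0.47) and Tpx2 (0.05). The 50% mark was first reached by 1 member at 2 h, by 30 more at 4 h and by 9 more at 6 h, and Tpx2 did not reach it. The 10% mark was first reached by 12 members at 6 h, by 18 more at 12 h and by 4 more at 24 h, and 7 members did not reach it within 24 h.

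Role groups are described by their counts and medians against 0 h M0. At 4 h all 6 cytokinesis genes were lower with a median log2 fold change of -1.64, as were both measured checkpoint kinases with -1.78 and all 6 kinetochore genes with -1.45. Of the 9 spindle assembly genes, 7 were lower, with a median of -0.88. The 4 cyclin and kinase genes were all lower (median -1.22), as were the 3 chromosomal passenger genes (-1.13). By 24 h the 3 genes of the anaphase ubiquitin ligase and entry group had the lowest median (-4.52), and the kinetochore genes stood at -2.63. The largest fall at 24 h was that of Ube2c, the ubiquitin-conjugating enzyme of the anaphase-promoting complex (log2 fold change -4.92), followed by Top2a, the topoisomerase that untangles chromosomes (-4.70). Pbk, a mitotic kinase, had the smallest share of its starting mean left, at 0.0871%, and was listed at 0 in all but 1 of the M1 libraries of 24 h.

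**Figure D2:**
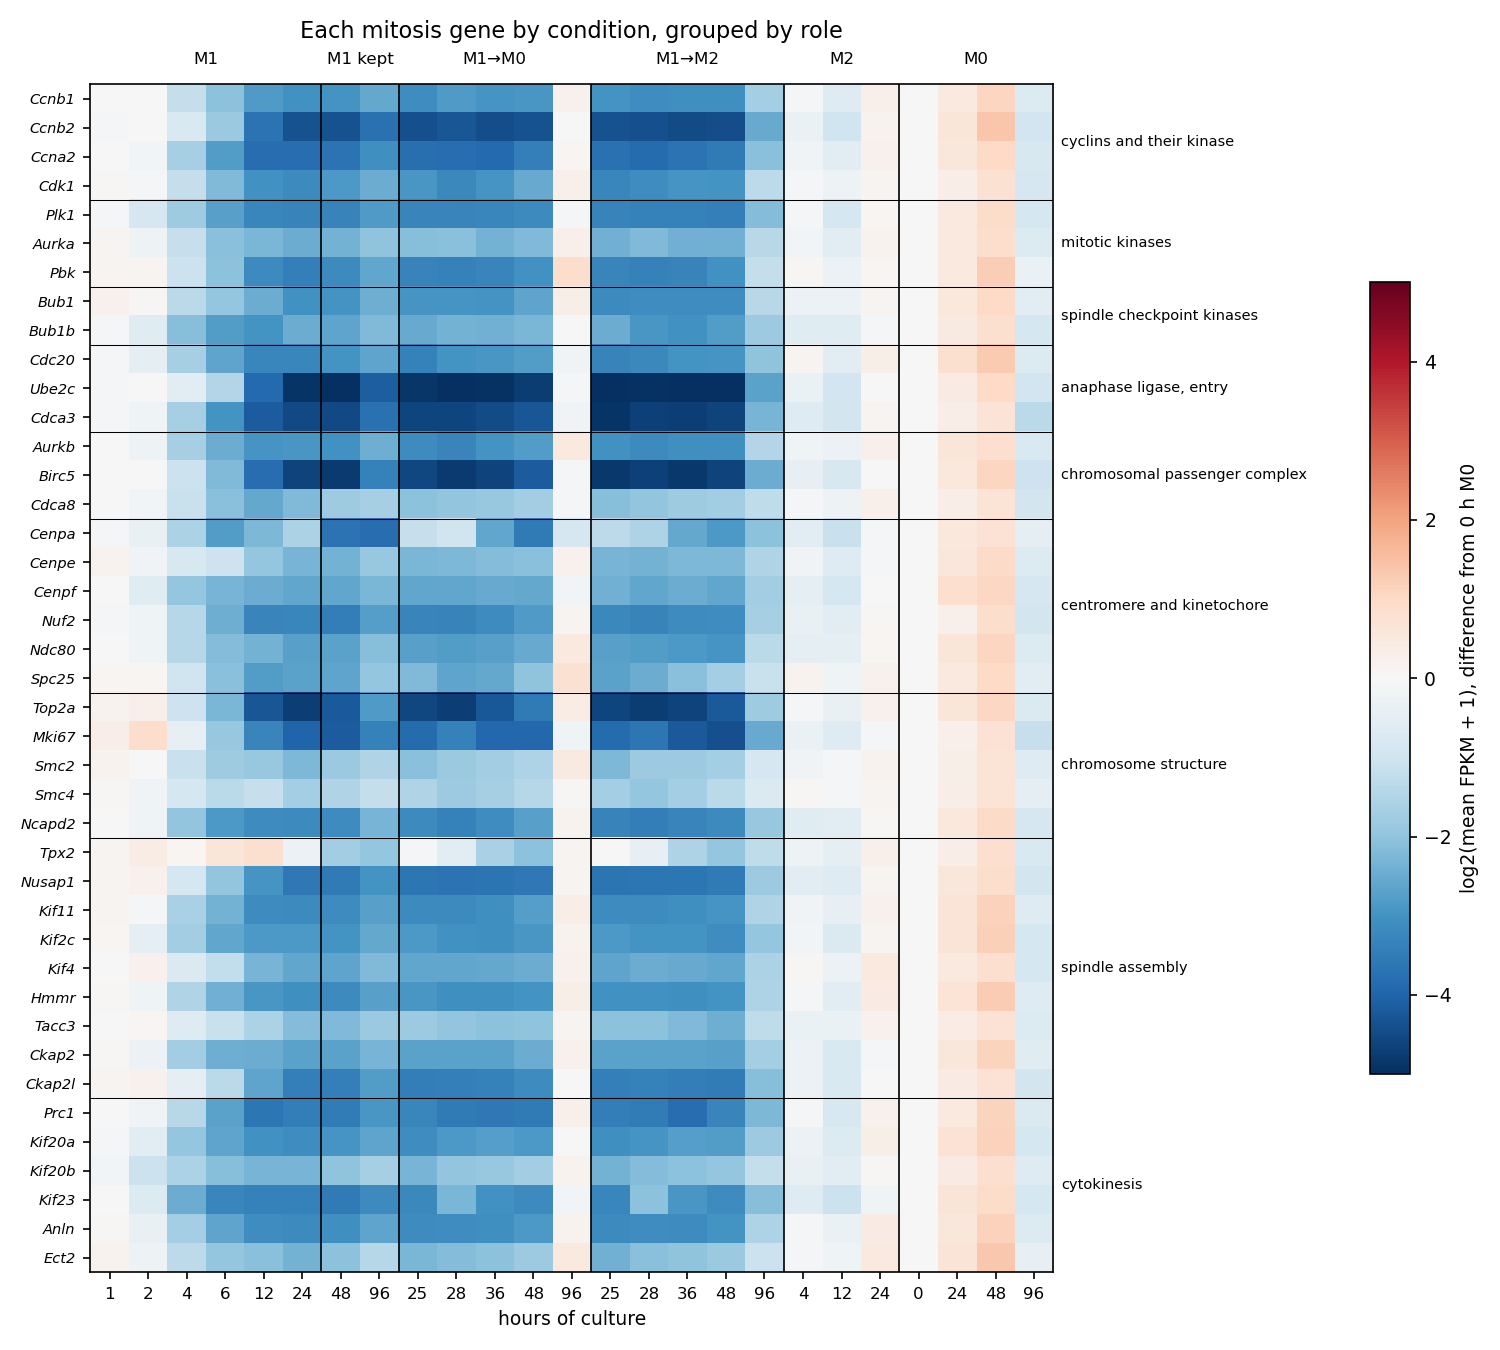
Each measured mitosis gene (rows, grouped by role) in each condition (columns, hours of culture), coloured by the log2 difference of its mean FPKM + 1 from 0 h M0. Nearly every row is pale at 1 h and 2 h of M1 cytokines, blue at 4 h and dark at 24 h; Tpx2 is the row that stays pale through 24 h, and Cenpa is paler at 24 h of M1 cytokines than at 6 h.

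M0 cultures of the same age gave a second reference, matched for time in culture. At 24 h, 40 of 41 members were lower in M1 than in M0 and 0 higher (25.2% and 35.4% of all genes), with a median log2 fold change of -3.55. The kept M1 cells were lower in all 41 members at 48 h (23.9% of all genes, median -4.11) and in all 41 at 96 h (22.3%, median -1.85). Between 48 h and 96 h both sides of this comparison moved: 41 members fell in M0, and the members' median against 24 h M1 was 0.51 in kept M1 cells at 96 h, where it had been 0.01 at 48 h. The neutrophil markers summed to 9.1 to 19.3 FPKM in 96 h M0.

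In each role group the member with the highest level in 0 h M0 shows the size of the fall. Cdk1, the kinase that starts mitosis, had 4.44, 8.36 and 6.42 FPKM in 24 h M1, against 78.6, 83.3 and 86.3 FPKM in 24 h M0. All 3 M1 libraries lay far below every M0 library (log2 fold change -3.53, SE 0.29, adjusted p = 6.11e-20). Aurka, the Aurora kinase of spindle poles, had 0.921, 1.54 and 1.67 FPKM in 24 h M1, against 14.8, 19.3 and 18.5 FPKM in 24 h M0 (-2.97, SE 0.29). Bub1b had 1.12, 2.33 and 1.45 FPKM in 24 h M1, against 21.3, 18.3 and 18.0 FPKM in 24 h M0 (-2.96, SE 0.25). The groups did not overlap for these kinases either. Cdca3, a trigger of mitotic entry, had 0.606, 1.16 and 1.01 FPKM in 24 h M1, against 51.1, 52.8 and 60.9 FPKM in 24 h M0 (-4.87, SE 0.36). Birc5, or survivin, of the chromosomal passenger complex, had 0.424, 1.06 and 0.827 FPKM in 24 h M1, against 60.8, 61.6 and 67.2 FPKM in 24 h M0 (-5.20, SE 0.36). Both genes were close to absent from the M1 libraries.

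Top2a had 0.852, 1.48 and 0.981 FPKM in 24 h M1, against 94.2, 75.5 and 76.2 FPKM in 24 h M0 (log2 fold change -5.31, SE 0.34, adjusted p = 1.15e-26). Prc1, which bundles the microtubules of the spindle midzone, had 0.848, 1.38 and 1.46 FPKM in 24 h M1, against 40.5, 29.6 and 30.2 FPKM in 24 h M0 (-3.95, SE 0.32). Tacc3, a spindle protein and the member of its group with the highest starting level, had 4.19, 4.61 and 4.26 FPKM in 24 h M1, against 30.04, 30.1 and 31.0 FPKM in 24 h M0 (-2.55, SE 0.27). Tacc3 thus kept more RNA than Top2a or Prc1, with 18.8% of its 0 h M0 mean left against 2.07% and 5.29%. Ube2c had the largest fold change of all members in this comparison (-5.32) and Tpx2 the smallest.

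Tpx2, a spindle assembly factor that activates Aurora A, was the member not called lower within 24 h. It had 21.8, 25.3 and 29.97 FPKM in 6 h M1 and 25.6, 28.3 and 37.0 FPKM in 12 h M1, against 15.9, 16.6 and 17.9 FPKM in 0 h M0. Every library of these M1 times lay above every 0 h M0 library, and the difference passed the test at 12 h (log2 fold change 0.80, SE 0.30, adjusted p = 0.0157) but not at 6 h (0.58, adjusted p = 0.0817). At 24 h it had 11.4, 15.3 and 13.7 FPKM in M1, against 19.5, 22.5 and 22.9 FPKM in M0 (-0.65, SE 0.30, adjusted p = 0.054). With M1 cytokines kept, Tpx2 had 2.80, 5.44 and 4.79 FPKM at 48 h, against 30.3 and 30.9 FPKM in 48 h M0, which was a fall (-2.60, adjusted p = 7.39e-11). Its fall began between 12 h and 24 h, a step of -1.10 on the log2 scale (adjusted p = 0.00162), when most members had already reached low levels. The exonic bases of Tpx2 are shared with no other annotated gene in GENCODE vM21. Cenpa, the histone H3 variant of centromeres, fell and then stood higher again: its mean started at 40.7 FPKM, was 12.8 FPKM after 4 h, 4.97 FPKM after 6 h, 7.84 FPKM after 12 h and again 12.8 FPKM after 24 h of M1 cytokines. The steps between 6 h and 12 h (0.59, adjusted p = 0.137) and between 12 h and 24 h (0.66, adjusted p = 0.101) did not pass the test. With the cytokines kept, Cenpa was lower at 48 h than at 24 h (-2.09, SE 0.34, adjusted p = 4.48e-07).

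**Figure D3:**
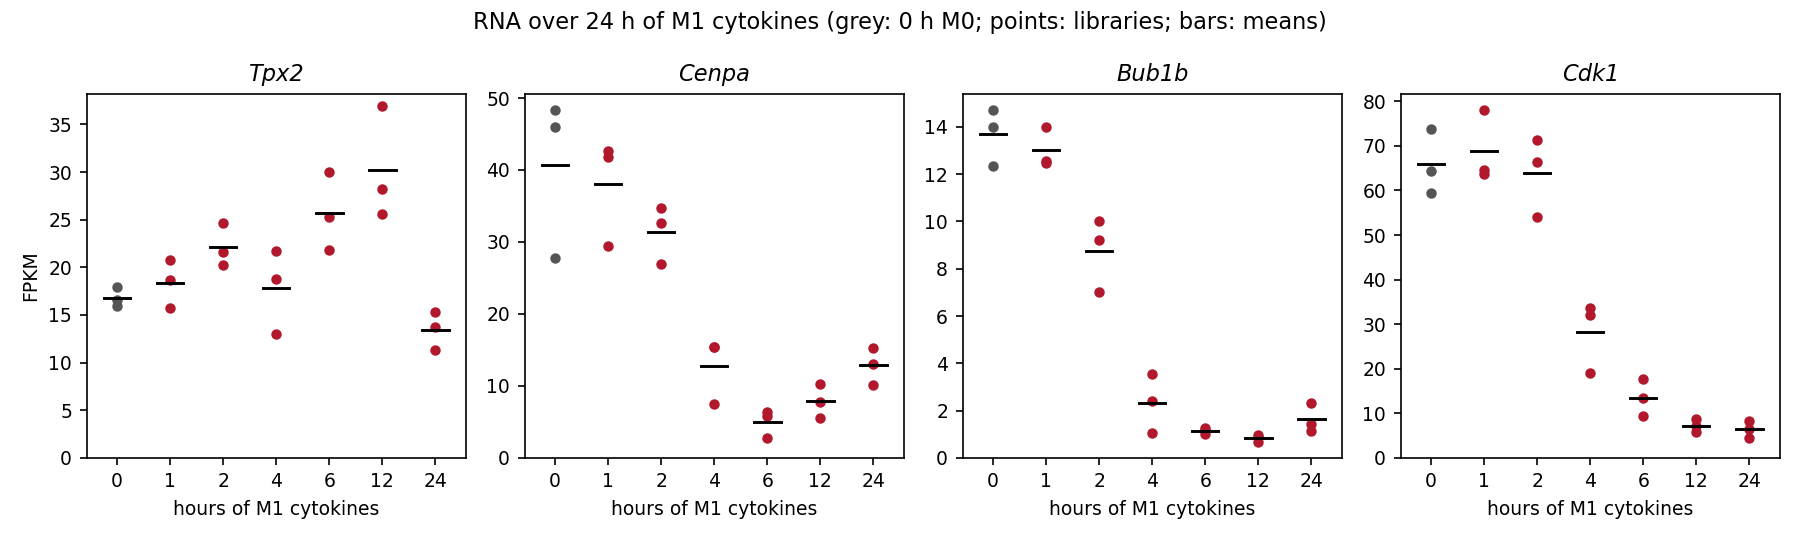
FPKM of Tpx2, Cenpa, Bub1b and Cdk1 (vertical axes) in each library (points) over hours of M1 cytokines (horizontal axis), with means as bars and 0 h M0 in grey. Tpx2 is highest at 12 h, with a mean of 30.3 FPKM, Cenpa is lowest at 6 h with 4.97 FPKM, and Cdk1 declines to 6.41 FPKM at 24 h.

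Cells kept in M1 cytokines stayed low. At 48 h, 2 of the 41 members were lower than in 24 h M1 (Cenpa -2.09 and Tpx2 -1.46) and 0 were higher, against 14.5% and 12.6% of all genes. At an unadjusted p below 0.05 in limma the number higher was also 0, and it was 2 in the adjusted test without replicate 1. At 96 h, Cenpa and Tpx2 were again lower and 8 members were higher (22.1% lower and 16.3% higher over all genes): Ccna2, Birc5, Spc25, Top2a, Smc2, Ncapd2, Kif20b and Ect2. The largest rise was that of Top2a, with 2.19, 10.0 and 7.51 FPKM in kept M1 cells at 96 h, against 0.852, 1.48 and 0.981 FPKM in 24 h M1 (log2 fold change 1.68, SE 0.34, adjusted p = 3.68e-05). With the replicate number as a block, 13 members were higher, and the count was 38 without replicate 1 and 1 without replicate 2 or without replicate 3. The libraries' medians over the 41 members were -3.14, -2.23 and -2.40 at 96 h (log2 difference from 0 h M0), so that replicate 1 had not moved from the level of 24 h, which was -3.16, -3.08 and -3.06.

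The second question was when the genes return after the M1 cytokines are washed out. At 1 h and at 2 h after the wash, 0 members differed from 24 h M1 (0.0482% of all genes lower and 0.0482% higher at 1 h, 0.722% and 2.37% at 2 h), and at an unadjusted p below 0.05 in limma there were 0 at 1 h and 2 at 2 h. At 2 h, 1 member was higher with the replicate number as a block and 2 without replicate 1. At 4 h, Kif23, a kinesin of the central spindle, was the only member higher (10.6% of all genes lower, 9.21% higher). It had 1.89, 2.096 and 2.07 FPKM 4 h after the wash, against 0.608, 0.314 and 0.378 FPKM in 24 h M1 (log2 fold change 1.08, SE 0.26, adjusted p = 0.000826). Those libraries did not overlap, but they remained far below the 24.9, 21.3 and 20.6 FPKM of 24 h M0. The number higher at 4 h was 5 without replicate 1 and 0 without replicate 2 or 3. At 12 h, Cenpa and Tpx2 were lower and 0 members higher (20.5% and 19.9% of all genes), with 2 higher at an unadjusted p below 0.05 in limma. With the replicate number as a block 2 were higher at 12 h, and 3 without replicate 1.

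At 24 h after the wash, 4 members were higher than in 24 h M1 and 2 lower (21.1% and 23.4% of all genes), with a median log2 fold change of 0.22. The 4 were Top2a (1.13), the condensin subunit Smc2 (0.72), the kinetochore protein Spc25 (0.66) and Kif20b (0.60), and the 2 were Cenpa (-1.94) and Tpx2 (-1.76). Without replicate 1 the number higher was 13, and without replicate 2 or without replicate 3 it was 0. Cdk1 had 6.53, 13.7 and 11.9 FPKM at this time, against 4.44, 8.36 and 6.42 FPKM in 24 h M1, which overlapped (0.64, SE 0.29, adjusted p = 0.0678), and this difference passed the test with the replicate number as a block. Against cells kept in M1 cytokines for the same time the washout gave 0 calls in either direction (13.4% of all genes lower and 10.4% higher, 3 members higher at an unadjusted p below 0.05 in limma). With the replicate number as a block 2 members were higher in the washout, and 6 without replicate 1 and 0 without replicate 2 or 3. The medians over the members were -3.04, -2.64 and -2.77 in the washout, against -3.18, -2.92 and -2.99 in kept M1 cells, and the washout library was the higher in each of the 3 pairs. All 41 members were lower in the washout than in 48 h M0 (15.7% of all genes, median -3.88).

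Between 24 h and 72 h after the wash all 41 members rose (12.0% of all genes higher, 14.6% lower), by a median of 2.70 on the log2 scale. Against 24 h M1, 39 were higher at 72 h and 0 lower (25.0% and 32.1% of all genes), with a median of 2.96, and against cells kept in M1 cytokines all 41 were higher (19.4% of all genes, median 2.48). Cdk1 had 25.6, 115 and 97.1 FPKM at 72 h after the wash, against 4.44, 8.36 and 6.42 FPKM in 24 h M1 (log2 fold change 3.22, SE 0.29). Top2a had 14.9, 104 and 91.6 FPKM, against 0.852, 1.48 and 0.981 FPKM in 24 h M1, the largest rise of the 41 (4.68, SE 0.34). Birc5 had 7.17, 62.1 and 52.6 FPKM, against 0.424, 1.06 and 0.827 FPKM (4.11, SE 0.36). In all these genes the library of replicate 1 was the lowest after the wash, though above each 24 h M1 library. The members not called against 24 h M1 were Cenpa (0.38, adjusted p = 0.349) and Tpx2 (0.19, adjusted p = 0.615), which had kept the largest shares of their starting mean in 24 h M1, at 31.5% and 80.3%. All 41 were higher than in 24 h M1 without replicate 1.

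How far the genes returned depended on the replicate. The 3 washout libraries had medians over the members of -1.56, 0.66 and 0.52 at 96 h of culture (log2 difference from 0 h M0), against -1.15, -1.13, -0.55 and -0.45 in the 4 libraries of 96 h M0. Replicate 1 was thus below all M0 libraries of that age and replicates 2 and 3 above them all. On the means, members stood at 55.0% (Cenpa) to 195% (Pbk) of 0 h M0, median 113%, and at 76.4% (Cenpa) to 264% (Kif4) of 96 h M0, median 204%. The test called 17 members higher in the washout than in 96 h M0 and 0 lower (10.7% and 7.19% of all genes). Spc25 had the largest difference (log2 fold change 1.08, SE 0.26, adjusted p = 0.000894) and Cenpa the lowest (-0.77, adjusted p = 0.0763). The count was 40 without replicate 1, 0 without replicate 2, 0 without replicate 3 and 0 in a fit of these conditions alone, so it rests on the libraries of replicates 2 and 3. Replicate 1 was also the lowest at 96 h in the kept M1, M1→M2 and M2→M1 cells. In 38 of 48 conditions its deviation from the condition mean, averaged over the members, was negative.

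The next question was whether IL-4 given after the wash changes the return. Up to 24 h after the switch limma called 0 members between M1→M2 cells and the washout, with 0 or 1 members at an unadjusted p below 0.05 at each time. Over all genes the share lower ran between 0% at 1 h and 4.6% at 12 h, and was 3.96% at 24 h. The share higher ran between 0.0361% at 1 h and 7.16% at 12 h, and was 6.27% at 24 h. At 24 h the count lower was 7 without replicate 1. At 72 h all 41 members were lower in M1→M2 cells than in the washout (8.45% of all genes), with a median log2 fold change of -1.68. Values ran between -2.37 for Prc1 and -0.66 for Smc4, a condensin subunit. Prc1 had 0.634, 6.84 and 4.96 FPKM in M1→M2 cells, against 5.48, 42.9 and 35.9 FPKM in the washout, and Cdk1 had 15.0, 34.5 and 27.7 FPKM, against 25.6, 115 and 97.1 FPKM. Within each replicate number the M1→M2 library was the lower, although the groups overlapped because replicate 1 of the washout was low. The medians over the members were -2.78, -1.21 and -1.48 in M1→M2 cells and -1.56, 0.66 and 0.52 in the washout. In a fit of these conditions alone 0 members passed the test, while 34 to 41 did when a replicate was left out of the full fit.

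The M1→M2 cells had still gained mitosis RNA: at 72 h, 39 members were higher than in 24 h M1 and 1 was lower (26.9% and 30.2% of all genes), with a median of 1.18. The lower one was Tpx2 (log2 fold change -1.05, SE 0.30, adjusted p = 0.00183), and Cenpa was not called. The number higher was 39 without replicate 1, 23 without replicate 2 and 29 without replicate 3. Cells in IL-4 from the start gave the level to compare with. At 48 h all 41 members were lower in M1→M2 than in kept M2 cells (21.0% of all genes, median -3.54), and at 96 h 0 differed in either direction (9.76% and 11.8%, median 0.10), with 2 at an unadjusted p below 0.05 in limma. Kept M2 cells had themselves fallen, with library medians over the members of 0.93, 0.26 and 0.38 at 48 h and -1.87, -1.89 and -1.92 at 96 h. The M1→M2 medians at 96 h were -2.78, -1.21 and -1.48. Replicate 1 thus lay below every kept M2 library and replicates 2 and 3 above them all.

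Time in base medium changed the genes as well. At 24 h, 1 member was higher than at 0 h (Cenpf, 0.82) and 0 lower (0.626% and 1.01% of all genes), with 10 higher without replicate 1 and 0 without replicate 2 or 3. At 48 h, 24 were higher (4.32%, with 4.37% lower), with a median log2 fold change of 0.98, and at 96 h 29 were lower (6.90%), with a median of -0.82. The step between 48 h and 96 h lowered all 41 (4.08% of all genes, median -1.81). Cdk1 started with 59.5, 64.4 and 73.8 FPKM, had 78.6, 83.3 and 86.3 FPKM after 24 h, reached 111 and 114 FPKM after 48 h, and had 27.2, 29.4, 40.6 and 47.9 FPKM after 96 h. These times did not overlap for Cdk1. The counts depended on single libraries: at 48 h, which has only 2 libraries, 37 were higher without replicate 1 and 1 without replicate 2 or 3, and at 96 h 35 were lower without replicate 1, 5 without replicate 2 and 1 without replicate 3. The step to 96 h lowered 41, 22 and 40 members in the same order.

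IL-4 alone moved fewer members and by less. Against 0 h M0, 0 members were lower after 1 h of IL-4 (0.0602% of all genes) and 1 after 2 h (9.29%). The number lower was 3 after 4 h (17.8%), 6 after 6 h (19.0%) and 15 after 12 h (17.4%), and 0 after 24 h (14.2%), when 1 member had an unadjusted p below 0.05 in limma and was higher. At 12 h the median log2 fold change was -0.56, with the largest fall in Kif23 (-1.08), and at 24 h it was 0.14. Without replicate 1 the counts were 2 after 2 h, 6 after 4 h, 9 after 6 h and 22 after 12 h, and without replicate 2 or 3 they were 0, 0, 0 and 2. With the replicate number as a block 3 members were lower after 2 h. Against M0 of the same age, 4 members were lower at 24 h (15.1% of all genes): Cenpe, Cenpf, Ckap2 and Kif23. That count was 17 without replicate 1 and 0 without replicate 2 or 3. At 96 h, 39 members were lower in kept M2 than in M0 (14.9%), with a median of -1.12 and 26 to 40 when a replicate was left out. Set against each other at 24 h, M1 cells were lower than M2 cells in 40 members (30% of all genes), with a median of -3.25, and Cdk1 had 4.44, 8.36 and 6.42 FPKM in M1, against 76.9, 59.4 and 83.2 FPKM in M2.

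Return from IL-4 to base medium gave 0 calls in either direction at 48 h of culture (7.55% of all genes lower and 5.84% higher, 0 members at an unadjusted p below 0.05 in limma). At 96 h, 14 members were higher in M2→M0 than in kept M2 cells (10.6% of all genes), with a median of 0.61, led by Birc5 (1.04) and Kif23 (0.99). Cdk1 had 23.0, 25.4 and 32.9 FPKM in M2→M0 cells, against 12.5, 15.8 and 15.5 FPKM in kept M2 cells, which did not overlap. The count was 32 without replicate 1, 1 without replicate 2 and 0 without replicate 3.

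Cells that had spent 24 h in IL-4 also lost mitosis RNA under M1 cytokines. Against 24 h M2, the number lower was 1 at 1 h (Cenpf, 2.19% of all genes) and 11 at 2 h (14.8%). It was 39 both at 4 h (29.4%) and at 6 h (30%), then 40 after 12 h (30.8%) and after 24 h (31.2%), with a median log2 fold change of -1.47 at 4 h and -3.04 at 24 h. The 1 h count was 0 without replicate 2 or 3, and the 2 h count was 12 without replicate 1, 8 without replicate 2 and 3 without replicate 3. At 72 h all 41 were lower than in 24 h M2 (28.1%, median -2.37), while 40 were lower than in kept M2 cells at 48 h of culture (29.9%) and 8 at 96 h (25.1% of all genes, led by Ube2c at -1.40, and 3 without replicate 3). Kept M2 cells themselves fell between 48 h and 96 h, with a mean of the library medians of 0.52 and then -1.90. The difference between the fall in M2→M1 cells and that of naive M1 cells was tested directly, as an interaction. It gave 0 calls at every time up to 12 h, with 0 or 1 members at an unadjusted p below 0.05 in limma. Over all genes, the shares called lower and higher were 0.0482% and 0% at 1 h and 2.23% and 0.939% at 2 h. They were 6.77% and 3.38% at 4 h, 6.91% and 3.96% at 6 h, and 6.69% and 6.69% at 12 h. At 24 h the interaction gave 1 call, Tpx2 (11.1% of all genes lower and 10.9% higher). Without replicate 1, 3 members were called higher at 6 h, 4 at 12 h and 7 after 24 h, and without replicate 2 or 3 there were 0 at these times. No member passing the test does not show that the falls were alike: the interaction was negative in 41 of 41 members at 1 h (median -0.34) and in 40 at 2 h (median -0.32), and in 3 at 6 h (median 0.35).

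Tpx2 was higher rather than lower in M2→M1 cells. It had 41.4, 67.8 and 67.9 FPKM 12 h after the switch and 19.5, 52.7 and 66.2 FPKM at 24 h, against 19.4, 16.7 and 23.9 FPKM in 24 h M2. At 12 h no M2→M1 library overlapped the M2 libraries (log2 fold change 1.5, SE 0.30, adjusted p = 7.15e-06), and at 24 h replicate 1 lay within their range (1.01, adjusted p = 0.002). The interaction at 24 h was 1.32 (SE 0.42, adjusted p = 0.0167), and a fit of the compared conditions alone did not call it. Against cells kept in M1 for the same 48 h of culture, Tpx2 had a mean of 46.1 FPKM in M2→M1 cells and 4.34 FPKM in kept M1 cells (3.01, SE 0.30, adjusted p = 8.63e-15). Cenpa was also higher there (2.57), as were Mki67 (0.75), Kif23 (0.61) and Bub1b (0.59), making 5 members (24.6% of all genes higher, 17.9% lower). That comparison sets 24 h of M1 cytokines against 48 h of them. The count was 11 without replicate 1 and 2 without replicate 2 or 3.

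Genes around the members moved with them. Of 80 other G2/M genes listed, 48 were measured, and 45 were lower and 2 higher in 24 h M1 than in 24 h M0 (25.2% and 35.4% of all genes), with a median log2 fold change of -2.45. The largest changes were those of Stmn1 (-5.37), which destabilises microtubules, Fam64a (-4.59), Racgap1 (-3.69), a partner of Kif23, and Dlgap5 (-3.63), and the genes that rose were Pttg1 (1.21), securin, and Zwint (0.27). Of 38 measured S phase genes (43 listed), 34 were lower and 0 higher, with a median of -1.68, led by the nucleotide enzymes Rrm2 (-4.31) and Tk1 (-4.13), the helicase subunit Mcm7 (-3.56) and Uhrf1 (-3.43). Of 18 measured regulators of G2/M genes (23 listed), 8 were lower and 3 higher, which for those higher is below the share of all genes. Foxm1, which activates G2/M genes, had 0.188, 0.244 and 0.313 FPKM in 24 h M1, against 14.6, 15.0 and 13.99 FPKM in 24 h M0 (-3.64, SE 0.27). Mybl2, or B-Myb, had 0.357, 0.854 and 0.177 FPKM, against 3.73, 4.196 and 4.35 FPKM (-1.82, SE 0.26). E2f8 (-1.88) and Tfdp1 (-1.09) were lower too, while Rbl1, E2f3 and E2f4, members of the pocket protein and E2F families that include repressors, were higher.

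Cdkn1a, the CDK inhibitor p21, was raised at 4 h of M1 cytokines, when 37 of the 41 members were lower. Its values at 1 h and 2 h are not given, so the order of these changes is not shown. It had 1001, 1065 and 993 FPKM in 4 h M1, against 50.7, 80.0 and 53.1 FPKM in 0 h M0 (log2 fold change 4.06, SE 0.21, adjusted p = 3.68e-34). At 24 h it had 225, 202 and 195 FPKM in M1, against 65.1, 67.7 and 61.1 FPKM in M0 (1.66, SE 0.21). The libraries did not overlap at either time. The part of Cdkn1a in the fall of the members was not tested. At 72 h after the wash, Cdkn1a had 130, 184 and 186 FPKM, against 225, 202 and 195 FPKM in 24 h M1, which was not called (-0.33, adjusted p = 0.176). Of the 6 measured CDK inhibitors (7 listed), Cdkn2c (-2.99) and Cdkn1c (-1.36) were lower in 24 h M1 than in 24 h M0 and only Cdkn1a was higher, among 25.2% lower and 35.4% higher over all genes. Of 10 measured genes of the list of G1 cyclins, kinases and Myc (11 listed), 5 were lower and 4 higher: Ccne2 (-2.36), Myc (-2.30) and Csf1r (-1.34), the M-CSF receptor, were among those lower, and Ccnd2 (2.01), Ccnd1, Ccnd3 and Ccne1 were the 4 higher. For those higher this is near the 35.4% of all genes.

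The lists were also followed after the wash. At 24 h, 22 of the 38 S phase genes were higher than in 24 h M1 and 2 lower (21.1% and 23.4% of all genes; median log2 fold change 0.65), while 7 of the 48 other G2/M genes were higher and 6 lower. At 72 h, 37 of the 38 S phase genes and 44 of the 48 other G2/M genes were higher (25.0% of all genes), beside 39 of the 41 mitosis genes. Against 96 h M0, 36 S phase genes and 27 other G2/M genes were higher in the washout and 0 of either list lower (10.7% and 7.19%). In M1→M2 cells at 72 h, 35 S phase genes and 42 other G2/M genes were lower than in the washout (8.45%). No test of the difference between the lists was made.

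ATAC-seq, which measures open chromatin by the insertions of a transposase, was used to ask whether the gene starts closed while the RNA was low. The libraries held 1730488 to 9354620 reads in peaks. Those of 24 h M1 held 3399222, 7917767 and 1730488, against 9354620, 5004005 and 7365338 in 0 h M0. Those of the washout held 6316477 to 8194529. Scaled to the library total, the members' peaks summed to 1663, 1436 and 1681 CPM in 24 h M1. In 0 h M0 they summed to 1333, 1641 and 1452 CPM, and in the washout to 1343 to 1439 CPM. These sums tended to be higher in libraries with fewer reads, and the part of depth in the comparisons was not tested. Of the 42 members, 41 had a peak within 500 bp of the GENCODE vM21 start (Cdca8 had none and Kif4 had 2), so 42 peaks of the 118083 tested were compared. In 24 h M1 against 0 h M0, 2 of the 42 were lower and 0 higher (15.7% and 18.3% of all peaks), by edgeR's quasi-likelihood test at an adjusted p below 0.05. Their log2 fold changes lay between -0.37 and 0.32, with a median of 0.09. The genes with a peak include Ttk and lack Cdca8, so they are not quite the genes of the RNA medians. The 2 were the peaks of Ckap2 (-0.37) and Nuf2 (-0.34), and the count was 0 without replicate 1 or 2 and 1 without replicate 3. Without replicate 2, 9 peaks were higher. The peak of Cdk1 (mm10 chr10:69351893-69353363), which holds the promoter sequence shown, had 44.5, 38.3 and 53.0 CPM in 24 h M1, against 34.5, 45.5 and 39.2 CPM in 0 h M0. The libraries overlapped (0.14, SE 0.14, adjusted p = 0.457), while Cdk1 RNA fell to 9.72% of its 0 h M0 mean. The peak of Tpx2 (chr2:152847471-152848858) had 38.6, 34.2 and 34.1 CPM in 24 h M1, against 26.9, 32.8 and 31.9 CPM in 0 h M0 (0.22, SE 0.13, adjusted p = 0.183).

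After the wash the RNA of the members rose. The share of their promoter peaks called lower was near that of all peaks, and the share called higher was below it. At 72 h, 6 of the 42 were lower than in 24 h M1 and 1 higher (13.6% and 11.3% of all peaks), with a median log2 fold change of -0.15. The lower ones were those of Birc5 (-0.57), Ube2c (-0.55), Nusap1 (-0.48), Cdca3 (-0.45), Kif23 (-0.41) and Tacc3 (-0.35), and the higher one was Ckap2 (0.39). The peak of Birc5 (chr11:117848200-117849685) had 21.7, 22.2 and 20.6 CPM in the washout, against 30.2, 33.95 and 30.6 CPM in 24 h M1 (SE 0.13, adjusted p = 0.00076). Those libraries did not overlap, and Birc5 RNA moved the other way, by 4.11 on the log2 scale. The number lower was 1 without replicate 1, 6 without replicate 2 and 1 without replicate 3, and the number higher was 0 in each. Against 0 h M0, 4 washout peaks were lower and 0 higher (9.94% and 11.3% of all peaks): Pbk (-0.72), Birc5 (-0.59), Bub1 (-0.47) and Ube2c (-0.46). A count of 4 among 42 is near the share of all peaks, and it was 2 without replicate 1, 3 without replicate 2 and 2 without replicate 3, with 2 peaks higher without replicate 2.

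**Figure D4:**
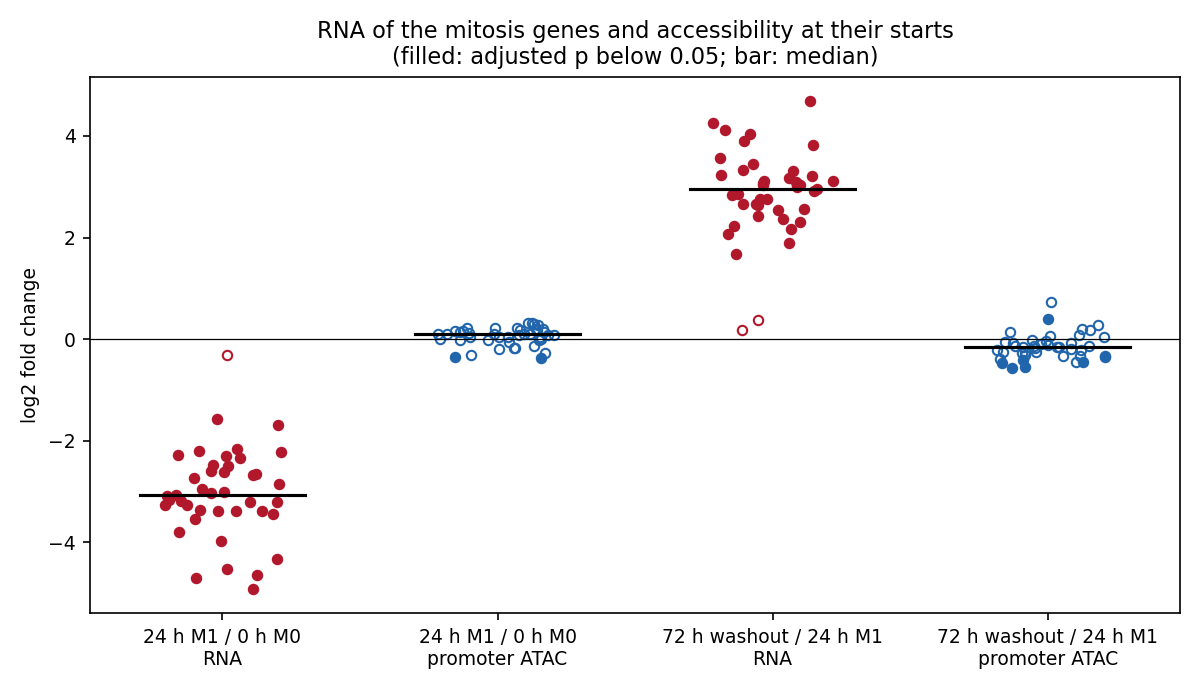
Log2 fold changes (vertical axis) of RNA (red) and of the promoter ATAC-seq peaks (blue) of the mitosis genes, for 24 h M1 over 0 h M0 and for the washout at 72 h over 24 h M1; each point is a gene or peak, filled where the adjusted p is below 0.05, and bars are medians. RNA medians over the 41 genes of the bulk matrix are -3.06 and 2.96, and medians over the 42 peaks are 0.09 and -0.15.

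Single-cell RNA-seq covered 1 library per condition, so the differences have no replicate check and no test was made. The libraries held 2446 to 5985 cells with a median of 1025 to 2529 UMIs (unique molecules) per cell, and pairs of libraries shared 6 to 25 cell barcodes. UMIs of the 42 members summed to 221 CPM in 6 h M1 (95% Poisson interval 211 to 231), against 2419 CPM in 6 h M0 (2380 to 2459). At 24 h they summed to 121 CPM in M1 (114 to 130), against 2317 CPM in M0 (2278 to 2357). M1 cells thus held 9.13% of the M0 sum at 6 h and 5.24% at 24 h. M2 cells had 1978 CPM at 6 h and 2582 CPM at 24 h, and 0 h M0 cells had 1491 CPM. Intervals here cover counting error only.

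A cell was counted as expressing the mitosis genes if it had UMIs of at least 5 different members. After thinning to 1000 UMIs per cell, 0.0649% of 6 h M1 cells did so (2 of 3084, exact binomial interval 0.00785% to 0.234%), against 16.6% of 6 h M0 cells (15.0% to 18.2%). At 24 h the share was 0.0384% in M1 (1 of 2602, 0.000973% to 0.214%), against 14.4% in M0 (13% to 15.9%). It was 12.6% in 6 h M2, 18.5% in 24 h M2 and 10.0% in 0 h M0. Without thinning, 1.51% of M1 cells passed at 6 h, against 30.4% of M0 cells, and 0.0704% of M1 cells at 24 h, against 19.0% of M0 cells. The number of genes per cell has no gap at this limit, with 74 cells at 4 members and 89 at 5 in thinned 24 h M0. Thinning left out 2899 of the 5985 cells of 0 h M0 and 0 to 460 cells of the other libraries. The cells that passed without thinning held 82.5% of all member UMIs in 24 h M0 and 4.63% in 24 h M1. Markers of macrophages were found in 99.5% to 100% of them, and neutrophil markers stood at 9.62 CPM in passing cells and 9.37 CPM in the rest of 24 h M0. In 6 h M1 they stood at 91.7 CPM in passing cells and 64.1 CPM in the rest, with a UMI in 20.4% and 8.82% of cells. Over all cells of a library, neutrophil markers stood at 105 CPM in 24 h M1 and 9.43 CPM in 24 h M0. Stem and progenitor markers stood at 5.5 CPM in passing cells and 1.41 CPM in the rest of 24 h M0, and at 5.75 CPM and 2.05 CPM in 0 h M0, and the part of these cells in the shares was not tested. No cell type that lacks these genes was set apart, so the share that free RNA gives was not tested.

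**Figure D5:**
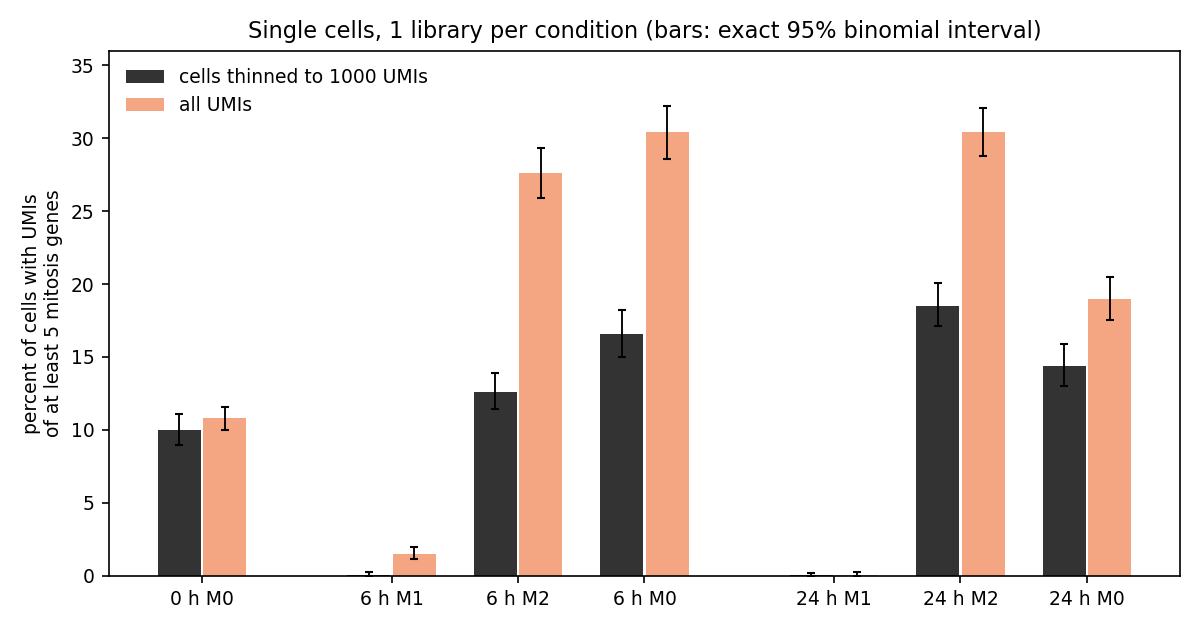
Percent of cells with UMIs of at least 5 mitosis genes (vertical axis) in each single-cell library (horizontal axis), after thinning to 1000 UMIs per cell (dark) and with all UMIs (light); error bars are exact 95% binomial intervals. In both M1 libraries thinned shares are 0.0649% and 0.0384%, and in the other libraries they are between 10.0% and 18.5%.

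The exceptions of the bulk data recurred in single cells. Of the 42 members, 41 had fewer CPM in 6 h M1 than in 6 h M0, and the other was Tpx2, with 39.95 CPM in M1 (35.9 to 44.4), against 37.9 CPM in M0 (33.1 to 43.1). At 24 h all 42 were lower in M1, Tpx2 by the least, with 28.95 CPM in M1 (25.1 to 33.2), against 30.7 CPM in M0 (26.4 to 35.6). Those intervals overlapped, and Tpx2 was the most abundant member in both M1 libraries, while Birc5 was in both M0 libraries of the same times. Cenpa had 6.73 CPM in 6 h M1, against 108 CPM in 6 h M0, and 27.3 CPM in 24 h M1, against 262 CPM in 24 h M0. Ttk, the checkpoint kinase Mps1, had 1 UMI in 6 h M1 (0.114 CPM), against 5.65 CPM in 6 h M0. It had 0 UMIs in 24 h M1, against 3.84 CPM in 24 h M0, and 7 members in all had 0 UMIs in 24 h M1, which is the limit of detection at this depth and does not show absence.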

How the data were processed

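Bulk RNA-seq, ATAC-seq and single-cell RNA-seq of cultured mouse macrophages were analysed, with samples grouped by their labels. For the bulk data the authors aligned reads to mm10 with TopHat 2.0.14, computed FPKM with Cuffnorm 2.2.2, kept genes reaching 10 FPKM in a library and deposited log10(FPKM + 1) values, which were rescaled here to log2(FPKM + 1), a pseudocount of 1. Since the study's own test needs reads, limma 3.58.1 (R 4.3.3) was fitted with a mean per condition over all libraries and a trended prior, and p-values were adjusted over all 8307 genes of each comparison. Depth of the bulk libraries is unknown. For ATAC-seq the authors called peaks with MACS2 2.1.0 and deposited read counts per peak, with SAMtools 1.9 and bedtools 2.28.0 among the tools named in the submitters' processing notes. On those counts the quasi-likelihood test of edgeR 4.0.16 was run (filterByExpr, TMM scaling), with DESeq2 1.42.0 as an alternative, on 1730488 to 9354620 reads in peaks per library. For single cells the authors deposited Cell Ranger UMI counts, which were summed per library, with no test and no treatment of doublets (95% exact intervals, Python 3.11.15, scipy 1.17.1). The limma and edgeR steps were tested on simulated data.

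The members and the lists were chosen with earlier results of these data known. Named genes are, in each role group, the member with the highest mean in 0 h M0, then members against the majority, the first and last to be called, those of largest and smallest change, up to 4 genes of each list with the largest change past the test, and Cdkn1a, Foxm1 and Mybl2. Values of Kif20b and Kif23 were added after they were seen. The main tests had no term for the replicate number and so ignored any pairing, which only the replicate block took in. Same-numbered libraries were judged to be paired where, with 3 or more pairs, every correlation of their deviations from the condition means was over 0.1. This held in 60 of 71 such comparisons (r between -0.273 and 0.841), M1 against 0 h M0 and the washout against 24 h M1 among them, and the numbers then come from the labels. Alternatives were the replicate block, a pseudocount of 0.1, a filter at 10 FPKM, equal medians, a fit of the compared conditions only, DESeq2, another thinning depth and each replicate left out. Whether reads were counted by strand is not given in the sources used here. Ccna2, Ube2c, Prc1, Kif20a, Kif4, Tacc3, Nusap1, Cdca8, Ckap2l, Plk1 and Cdc20 share exonic bases with a gene on the other strand.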

Additional observations from a re-analysis of the deposited data

Results flagged for a closer look

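Bub1b in M2→M1 cells 4 h after the switch had 2.23, 2.08, 3.51 and 2.21 FPKM in its 4 libraries, and the third stood apart from the others at 2.174 on the log2(FPKM + 1) scale. Of 20 such groups of 4 libraries examined, this was the one that stood out, where chance gives about 1 in 20.

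The change of Tpx2 over 24 h of M1 cytokines differed between cells that had first spent 24 h in IL-4, where it was 1.01 on the log2 scale and called higher, and naive cells, where it was -0.31 and not called: the interaction was 1.318 on the log2 scale (SE 0.42, limma, adjusted p = 0.0167). It was not called in a fit of the compared conditions only, and without replicate 1 the number of members with a called interaction was 7, while it was 0 without replicate 2 or without replicate 3.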

How the results depend on the processing

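Of 1246 values recomputed under an alternative, 973 kept their call or stayed within 1.5 times of the value given. Another 227 moved further, 28 lost a call, 18 gained one and 0 were counted as reversed. Fold changes that did not pass the test could still change sign. With a replicate left out, that of Cenpa 72 h after the wash ran between -0.12 and 1.26 against 24 h M1. Against 96 h M0 it ran between -1.28 and 0.09. The falls at 4 h, 6 h and 24 h of M1 cytokines, the fall against M0 at 24 h and 48 h and the rise 72 h after the wash kept their calls in all or nearly all members, except under the FPKM filter, where fewer members pass. With that filter (a mean of at least 10 FPKM in 1 condition) 23 members were lower at 4 h, 26 at 6 h and 26 at 24 h of M1 cytokines, 14 in kept M1 against M0 at 96 h, 19 in M0 at 96 h, and 13 in M2 against M0 at 96 h, and 0 were higher 24 h after the wash, 11 in the washout against 96 h M0 and 3 in M2→M0 against kept M2 cells. With a pseudocount of 0.1, the number higher was 12 at 24 h after the wash, 8 in the washout against 96 h M0 and 5 in M0 at 48 h, and the number lower was 15 in M0 at 96 h, 1 in M2 against M0 at 24 h and 3 in M1→M2 against the washout at 24 h. In fits of the compared conditions only, 9 were higher at 24 h after the wash, 0 in the washout against 96 h M0, 33 in M2→M0 against kept M2 cells and 0 for the interaction, while 11 were lower in M2 against M0 at 24 h and 0 in M1→M2 against the washout at 72 h. Equal medians moved the median of all genes in M1 against 0 h M0 by -0.131, -0.175, -0.202, -0.169 and -0.135 between 2 h and 24 h, and the members' median at 24 h was then -3.16.

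With each replicate left out, the count ran between 0 and 13 for members higher 24 h after the wash, 0 and 40 for the washout against 96 h M0, 0 and 32 for M2→M0 against kept M2 cells, 0 and 7 for the interaction at 24 h, 1 and 37 for M0 at 48 h, 1 and 35 for M0 at 96 h, 0 and 17 for M2 against M0 at 24 h, and 0 and 7 for M1→M2 against the washout at 24 h. With the replicate block, where the numbers did not pair the samples, 29 members were higher in the washout against 96 h M0 and 38 in M0 at 48 h, and for promoter peaks, whose correlations were within 0.06 of 0, 0 were lower in M1 and 0 higher after the wash. Promoter peaks lower in 24 h M1 numbered 0 to 1 and those lower after the wash 1 to 6 with each replicate left out, and DESeq2 gave 1 lower in M1 and 0 higher after the wash. The share of cells with at least 5 members at 24 h was 30.4% in M2 and 19.0% in M0 without thinning, 29.0% and 21.9% for at least 3 members, and 5.78% and 4.62% at 500 UMIs, where it was 0% in M1.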
